A study of Mus musculus with 10 samples.

Results

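Bcan, Dach1, Spon2, Bex2, Tmeff2, Asgr1, Kitl and Camk2b are 8 genes whose RNA was lower in the lungs of smoke-exposed mice than in lungs kept in room air. They were chosen by their measured differences between these groups, so their values are a description and carry no test. They make up 8 of the 27670 genes and 13 of the 41174 probes on the arrays. The RNA came from whole lungs of female BALB/c mice, an inbred laboratory strain, bought at an age of 6 to 8 weeks. A group of 5 mice breathed mainstream cigarette smoke in a whole-body exposure system during 8 weeks, and a group of 5 mice breathed room air over the same time. Smoke was given 5 days a week, in 2 sessions of 50 minutes on each day, with 12 cigarettes burnt per session. Lungs were not pooled, and each lung was measured on its own array. An extract of whole lung mixes the RNA of every cell type in the organ.

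Bcan and Spon2 encode proteins of the extracellular matrix, the meshwork that surrounds cells, and Bcan is best known from brain. Tmeff2, Asgr1 and Kitl encode proteins that are anchored in the cell membrane and either bind extracellular partners or signal to neighbouring cells, and Asgr1 is best known from liver. Dach1, Bex2 and Camk2b act inside the cell, in transcription and in signalling.

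The files hold a red and a green channel for each array, and genes unrelated to smoke showed which RNA each held. Eif2s3y and Kdm5d, which lie on the Y chromosome, had log2 signals of 9.76 and 8.12 in green and of 2.76 and 4.06 in red. Sftpc, Scgb1a1 and Ager, genes of the alveolar and airway epithelium, were brighter in red by 6.39, 6.72 and 4.83. Red was therefore read as the female lung, and green as a reference made in part from males. A level is the log2 ratio of red over green, and a difference is the smoke mean minus the room air mean. Directions follow the scanner files as they are assigned to the mice. The deposited table of processed values has the groups exchanged against these files, and its directions are the opposite for 7 of the 8 genes, while Dach1 has values there on only 2 arrays. All 286449 of its values equal, within 1e-04, the mean log2 of red and green of the array with the same number in the other group, and 286 equal their own array. The table thus averages lung with reference and holds no ratio. Whether the table or the files carry the exchange was not tested, and if the files do, every direction given here turns. As the files are assigned, 9 of 10 macrophage markers were called higher with smoke by limma, among them Trem2 (3.03) and Spp1 (2.91).

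The tissue was checked with 11 genes of lung epithelium and endothelium. All 11 were well above background in red on 10 of 10 arrays, and Sftpc was the brightest. Their mean log2 ratio was 5.34 ± 0.23 in room air and 5.35 ± 0.32 with smoke (SD, n = 5 each), so the groups overlapped. Pecam1, an endothelial gene, was the only member of the list called by limma, at -0.41, and passed in 3 of the 10 fits with an array left out.

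On the main scaling Bcan had the most negative difference of all genes on the array. The 8 genes had a median log2 difference of -1.06, against -0.0032 over all probes. In a bulk extract, fewer cells that hold a transcript and less RNA per cell cannot be told apart. The order of falls was made over 609 genes that passed the test, had groups that did not overlap, were well above background on the 5 room air arrays and had a gene name. Bcan stood at place 1, Dach1 at 3, Spon2 at 5, Bex2 at 7, Tmeff2 at 9 and Asgr1 at 10, so 6 of the first 10 belong to the group. The others of those 10 were Arntl (-1.59), Adm (-1.40), Esm1 (-1.11) and Col17a1 (-1.05), and the next were Pknox2 (-1.03) and Cidec (-1.02). Kitl stood at place 98, between Ddah2 (-0.59) and Gsn (-0.59), and Camk2b at place 333, between Maged2 (-0.37) and Dip2c (-0.37). Apart from Bcan, which lay farther than its standard error from Arntl, each of these genes lay within its standard error of its neighbours in the order.

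**Figure D1:**
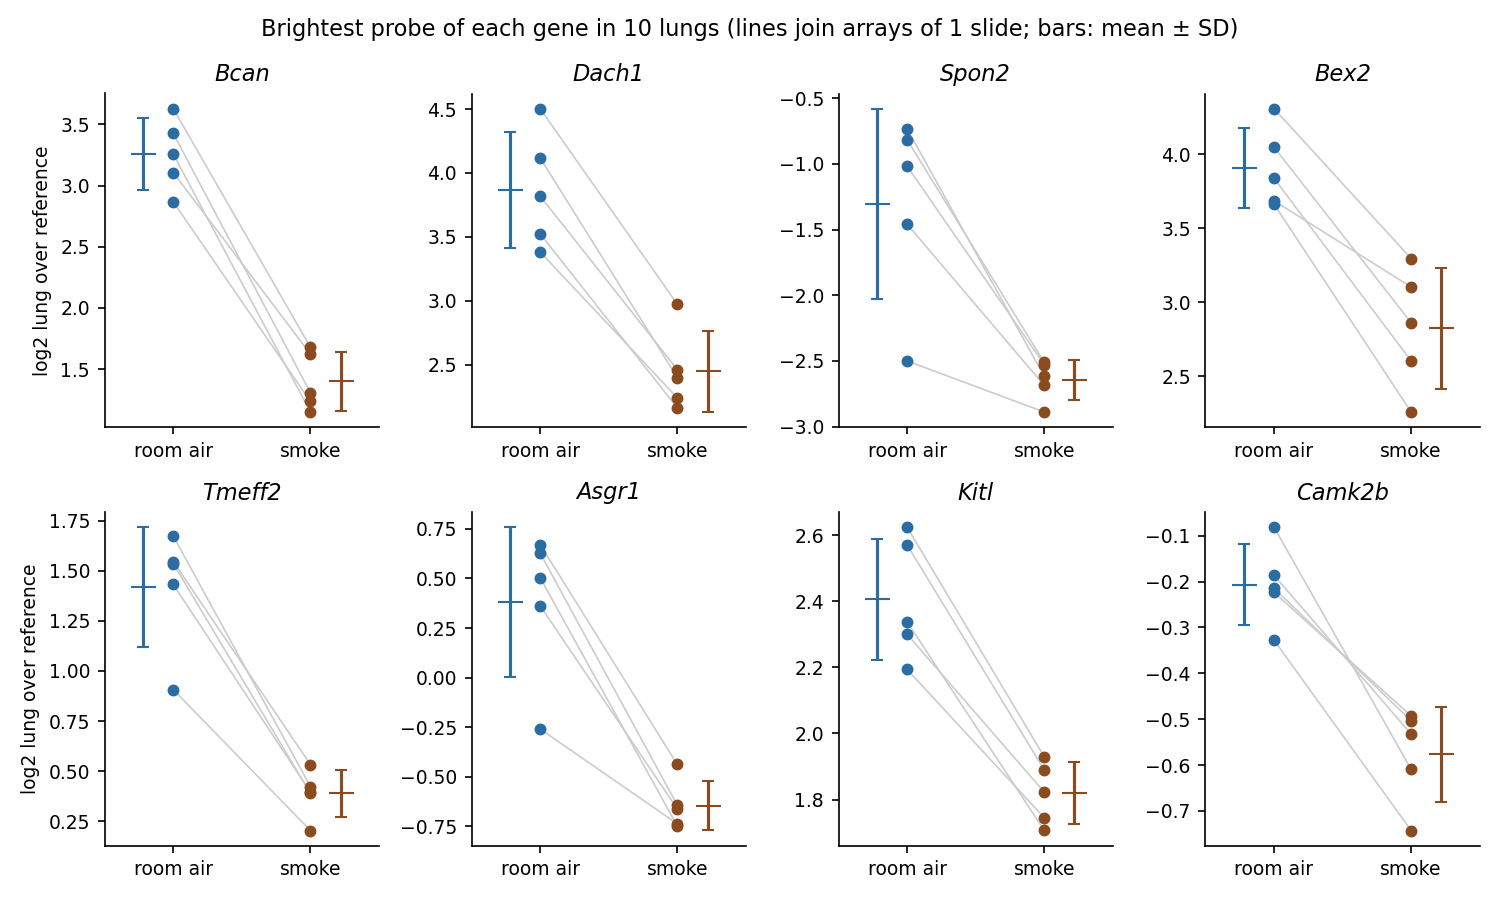
Log2 ratio of lung over reference for the brightest probe of each of the 8 genes, with 1 point per lung, room air on the left and smoke on the right of each panel. Grey lines join the arrays of 1 slide and bars give the mean with its SD (n = 5); in every panel the 5 smoke points lie below the 5 room air points, and for Spon2 the gap is only 0.01.

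All 13 probes of these genes had a lower mean with smoke. For 10 of the 13, every smoke array lay below every room air array, as it did for 2.8% of the 41133 probes with values on all arrays. That share is given for scale, and nothing is read from it, since the genes were chosen on this contrast. The brightest probe in red stands for a gene below, and for all 8 genes it was well above background in red on 10 of 10 arrays and saturated on none.

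Upstream sequences are shown for Bcan, which had the largest difference of the 8 on the main scaling, and for Tmeff2, Kitl and Camk2b, in which matches to the motifs searched for lie close to the start. They are the 250 bases before the transcription start on the gene's own strand, from RefSeq on the mouse build GRCm38.p6, and capitals mark motif letters. The Bcan window is chr3:88000357-88000606 on the minus strand, that of Tmeff2 chr1:50927273-50927522 on the plus strand, that of Kitl chr10:100015571-100015820 on the plus strand and that of Camk2b chr11:6065749-6065998 on the minus strand.
Bcan: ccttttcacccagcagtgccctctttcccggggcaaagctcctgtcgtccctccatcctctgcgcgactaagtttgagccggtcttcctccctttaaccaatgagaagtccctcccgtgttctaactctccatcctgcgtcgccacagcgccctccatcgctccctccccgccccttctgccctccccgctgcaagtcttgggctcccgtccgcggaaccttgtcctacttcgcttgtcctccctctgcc
Tmeff2: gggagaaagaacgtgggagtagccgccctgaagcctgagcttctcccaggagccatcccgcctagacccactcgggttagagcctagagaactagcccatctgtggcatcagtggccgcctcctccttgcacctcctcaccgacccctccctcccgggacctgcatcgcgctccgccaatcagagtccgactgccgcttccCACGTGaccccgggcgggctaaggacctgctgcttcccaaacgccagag
Kitl: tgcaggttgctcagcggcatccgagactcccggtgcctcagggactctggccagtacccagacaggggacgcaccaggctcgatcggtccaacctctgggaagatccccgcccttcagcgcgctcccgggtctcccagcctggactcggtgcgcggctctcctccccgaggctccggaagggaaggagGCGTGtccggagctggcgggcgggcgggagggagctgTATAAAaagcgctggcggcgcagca
Camk2b: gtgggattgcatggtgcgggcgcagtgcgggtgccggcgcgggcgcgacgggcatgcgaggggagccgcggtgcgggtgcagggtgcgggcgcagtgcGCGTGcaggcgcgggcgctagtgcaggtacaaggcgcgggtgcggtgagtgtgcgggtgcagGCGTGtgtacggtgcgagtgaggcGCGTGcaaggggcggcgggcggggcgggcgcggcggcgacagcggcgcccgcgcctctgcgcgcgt
Of the 8 genes, 7 had a start in the table, Asgr1 with 2 starts, and Spon2 did not. Searched on both strands were GCGTG, the core to which the aryl hydrocarbon receptor binds, TGACNNNGC, the antioxidant response element, CACGTG, an E-box, and TATAAA, the TATA box. GCGTG lies in 28.2% of the 32851 starts in the table, TGACNNNGC in 10.2%, CACGTG in 6.02% and TATAAA in 12.4%. Camk2b held GCGTG at 152, 90 and 66 bases before the start and Kitl at 62, while TGACNNNGC was in 0 of the 8 windows of the group. Tmeff2 held CACGTG 49 bases before its start. TATAAA lay 25 bases before the start of Kitl and, on the other strand, 213 bases before that of Bex2. No match overlapped another, and the windows of Bcan, Dach1 and Asgr1 held none of the 4 motifs. The Camk2b window had 78.4% G and C and the Bcan window 62%, against a median of 52.4% over all starts. A match is a description of letters and says nothing of binding.

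Bcan encodes brevican, a chondroitin sulphate proteoglycan of the lectican family that binds hyaluronan and tenascins. Its log2 ratios on room air arrays 1 to 5 were 3.11, 3.43, 3.63, 2.87 and 3.26, and on smoke arrays 1 to 5 they were 1.62, 1.31, 1.68, 1.24 and 1.15. The groups were far apart, with 1.19 between the lowest room air lung and the highest smoke lung, and the spread within each group was small beside that gap. The difference was -1.86 ± 0.15 (SE of the limma fit, n = 5 against 5), a ratio 3.62-fold higher in room air. In the red channel, scaled together with green, the values of room air arrays 1 to 5 were 9.43, 10.02, 10.04, 10.03 and 10.11. Those of smoke arrays 1 to 5 were 8.05, 7.56, 7.85, 7.66 and 7.60. The red difference was -2.18 and the green difference -0.32, so the reference was also dimmer on the smoke arrays, and the ratio moved less than the lung channel. Green was well above background for this probe on 9 of 10 arrays. Without room air array 3 the difference was -1.77, and without room air array 4 it was -1.96.

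The lecticans, the link proteins and hyaluronan synthases that act with them, the tenascins, the hyaluronan receptor Cd44 and the proteases that cut lecticans formed a list of 16 measured genes. By limma 2906 of 41173 probes were called (7.06%), of which 1113 were lower with smoke (2.7%) and 1793 higher (4.35%). Beside that share, 2 of the 16 were lower and 1 was higher. With the slide as a replicate block, 2 were lower and 3 higher, beside 5019 of 41173 probes called, 2227 of them lower. The calls over all probes were 38.3% lower in direction, and 52.1% lower with median centring in place of loess. Adamts5, a protease that cuts lecticans, fell by 0.73 ± 0.09 (adjusted p = 0.000661 by limma with Benjamini-Hochberg adjustment, with all 5 smoke arrays below every room air array). Hapln3, a link protein, fell by 0.44 ± 0.12 (adjusted p = 0.0429 by limma, 3 of 5 smoke arrays below every room air array), and Cd44 rose by 0.83 ± 0.20 (adjusted p = 0.0268 by limma, 3 of 5 above every room air array). When each array was left out in turn, Hapln3 passed only without room air array 4, and Cd44 only without room air array 1 or smoke array 4, whereas Adamts5 passed in all 10 fits. The other lecticans Ncan and Vcan did not pass, with -0.04 ± 0.08 for Ncan (adjusted p = 0.906 by limma, 1 of 5 smoke arrays below every room air array) and 0.21 ± 0.14 for Vcan (adjusted p = 0.499 by limma, 2 of 5 above). Hapln2 and Tnr were well above background on 0 arrays, and the median of the list was -0.04. With the log ratio of the scanner software that median was -0.35 and Ncan had -0.66, and with the red processed signal Ncan had -0.76, again without passing.

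Spon2 encodes a secreted matrix protein, spondin 2, that binds integrins and takes part in innate immune recognition. The log2 ratios were -2.50, -1.02, -0.73, -1.46 and -0.82 on room air arrays 1 to 5, and -2.89, -2.53, -2.62, -2.69 and -2.51 on smoke arrays 1 to 5. The smoke lungs lay close together, whereas the room air lungs were widely spread, and room air array 1 lay next to the smoke lungs. The difference was -1.34 ± 0.28 (SE, n = 5 against 5), a ratio 2.53-fold higher in room air. It was -1.64 without room air array 1 and -1.20 without room air array 3. With the log ratio of the scanner software Spon2 had -1.48, slightly beyond Bcan at -1.45. The SD was 0.72 in room air and 0.15 with smoke. A dimmer probe of Spon2 had a difference of -1.12 ± 0.29, and for it only 2 of 5 smoke arrays lay below the lowest room air array. Over the 10 arrays the deviations of both probes from their group means went together (r = 0.99).

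Of 10 measured genes of spondins, R-spondins and integrin chains, 0 were called lower and 1 was called higher, or 2 and 2 with the replicate block. Itgb2, the integrin beta chain of leukocytes and a partner of Spon2, rose by 1.28 ± 0.07 (adjusted p = 1.7e-06 by limma, with 5 of 5 smoke arrays above every room air array). Spon1, the nearest relative of Spon2, had a difference of 0.07 ± 0.12 (adjusted p = 0.854 by limma, 2 of 5 smoke arrays above every room air array), which turned to -0.04 with median centring. Rspo3 was well above background on 0 arrays.

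Tmeff2 encodes a transmembrane protein with follistatin-like modules and a module related to epidermal growth factor, which is shed from the cell surface and binds growth factors of the PDGF family. The ratios of room air arrays 1 to 5 were 0.91, 1.67, 1.55, 1.43 and 1.54, and those of smoke arrays 1 to 5 were 0.20, 0.42, 0.53, 0.40 and 0.39. Room air array 1 and smoke array 1, which share a slide, were each the lowest of their group, and the groups were 0.37 apart. The difference was -1.03 ± 0.13 (SE, n = 5 against 5), a ratio 2.04-fold higher in room air, and -1.16 without room air array 1. A probe of similar brightness gave -1.05 ± 0.11, also with no overlap. The dimmest probe gave -0.09 ± 0.07 with groups that overlapped. It was well above background in red on 5 room air arrays but on only 1 smoke array, and in green on 0 of 10, so no fold is given for it. An E-box match in the sequence shown above lies close to the start of this gene.

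Tmeff1, the other proteins with follistatin modules and the PDGF ligands and receptor made a list of 17 measured genes, of which 3 were called lower and 1 higher, or 4 and 1 with the replicate block. Pdgfra, the receptor of PDGF-A, fell by 0.49 ± 0.04 (adjusted p = 5.95e-05 by limma, 5 of 5 smoke arrays below every room air array) and passed in all 10 fits with an array left out. Sparcl1 and Sparc, matricellular proteins, each fell by 0.27 with all 5 smoke arrays below every room air array (adjusted p = 0.0432 and 0.0352 by limma). Fstl1, a secreted glycoprotein, rose by 0.42 ± 0.10 (adjusted p = 0.0284 by limma, 3 of 5 smoke arrays above every room air array). With each array left out in turn, Sparcl1 passed in 3 of the 10 fits, Sparc in 2 and Fstl1 in 4, and none of these 3 genes passed under any of the 4 other scalings. Tmeff1 itself had -0.17 ± 0.14 (adjusted p = 0.65 by limma, 1 of 5 smoke arrays below every room air array).

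Asgr1 encodes the major subunit of the asialoglycoprotein receptor, a C-type lectin that takes up glycoproteins exposing galactose. Its log2 ratios were -0.26, 0.36, 0.50, 0.67 and 0.63 on room air arrays 1 to 5 and -0.74, -0.66, -0.75, -0.44 and -0.64 on smoke arrays 1 to 5. Room air array 1 was low, 0.18 above the highest smoke lung, and the other 4 room air lungs lay well above. The difference was -1.03 ± 0.15 (SE, n = 5 against 5), a ratio 2.04-fold higher in room air, and without room air array 1 it was -1.19. Asgr1 has 1 probe, and its red and green differences were -1.12 and -0.10.

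Asgr2, which encodes the other subunit of the same receptor, moved the other way. It rose by 1.43 ± 0.16 (adjusted p = 0.000263 by limma, 5 of 5 smoke arrays above every room air array), from a mean ratio of 1.04 to 2.48. Cd207, the lectin of Langerhans cells, rose by 0.96 ± 0.09 (adjusted p = 6.24e-05 by limma, 5 of 5 above), but had 0.40 and did not pass with the log ratio of the scanner software. Of the 6 measured lectins of this group, 0 were called lower and 2 higher (0 and 4 with the replicate block), with a median of 0.62, and Clec4f, a lectin of liver macrophages, was well above background on 0 arrays. Asgr2 passed under each of the 4 other scalings, and its value ranged from 1.40 to 1.76 over them and the main one.

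Because Asgr1 is known from hepatocytes, 8 measured hepatocyte markers were read beside it, of which 3 were well above background on 10 arrays and Ttr on 0. None was called in either direction by limma. Their summed red signal was 810.4, 690.9, 1255, 679.2 and 2391 on room air arrays 1 to 5, and 859.7, 749.3, 882.9, 755.7 and 841.2 on smoke arrays 1 to 5, with Cyp2e1 the brightest. Room air arrays 3 and 5 were thus high in these markers, while room air array 4, which had the highest Asgr1 ratio, had the lowest sum. Their part in the Asgr1 difference was not tested.

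Kitl encodes stem cell factor, the ligand of the receptor tyrosine kinase Kit, which is displayed on the cell surface or shed from it. The main probe was printed on 10 spots of each array, and its mean ratios were 2.62, 2.57, 2.34, 2.30 and 2.19 on room air arrays 1 to 5 and 1.93, 1.89, 1.71, 1.82 and 1.75 on smoke arrays 1 to 5. The array means did not overlap and were 0.26 apart, although in the red channel the groups did overlap. The difference was -0.59 ± 0.09 (SE, n = 5 against 5), a ratio 1.5-fold higher in room air, between -0.64 and -0.53 with each array left out in turn. The 10 spots of an array had an SD between 0.06 and 0.14 (median 0.11), against an SD between lungs of 0.18 in room air and 0.09 with smoke. Single spots did overlap, since the lowest of the 50 room air spots was at 2.02 and the highest of the 50 smoke spots at 2.15. A dimmer probe of Kitl gave -0.28 ± 0.11, with 4 of 5 smoke arrays below the lowest room air array and smoke array 2 at 0.90 among the room air lungs. The GCGTG and TATAAA matches of this gene are in the sequence shown above.

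Kit, the receptor, had ratios of 4.79 ± 0.25 in room air and 4.64 ± 0.26 with smoke (SD, n = 5 each), a difference of -0.15 ± 0.14 (adjusted p = 0.703 by limma, 2 of 5 smoke arrays below every room air array), which was 0.03 with the log ratio of the scanner software. Of 18 measured genes of Kit and its signalling, 0 were called lower and 2 higher, or 2 and 2 with the replicate block. Ptpn6, a phosphatase of blood cells that dampens Kit signalling, rose by 0.81 ± 0.09 (adjusted p = 0.000221 by limma, 5 of 5 smoke arrays above every room air array). Pik3cd, a lipid kinase subunit of leukocytes, rose by 0.49 ± 0.07 (adjusted p = 0.00105 by limma, 5 of 5 above), and did not pass with median centring or with the red channel alone.

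Mast cells depend on Kit, and 12 of their markers were measured, 5 of them well above background on 10 arrays and Mcpt2 and Mrgprb1 on 0. Cma1, a chymase, fell by 0.51 ± 0.14 (adjusted p = 0.048 by limma, 3 of 5 smoke arrays below every room air array), and Fcer1a, a chain of the IgE receptor, fell by 0.17 ± 0.04 (adjusted p = 0.0374 by limma, 5 of 5 below). With each array left out in turn, they passed in 2 and 1 of the 10 fits. With the log ratio of the scanner software 0 mast cell markers were called, and 1 was called lower with median centring or with quantile-normalized red. The summed red signal of the list was 6100, 5190, 7368, 5475 and 7348 on room air arrays 1 to 5, and 3385, 3048, 3722, 3289 and 3432 on smoke arrays 1 to 5, with Hdc the brightest gene. The sums were thus lower in all 5 smoke lungs than in any room air lung, but they rest mostly on Hdc. Its mean log2 red value was 11.77, against 7.99 for Cma1, the next brightest. Hdc itself was not called (-0.36 ± 0.12, adjusted p = 0.108 by limma, 2 of 5 smoke arrays below every room air array), although it was with the slide as a replicate block, in which 3 mast cell markers were lower. The median of the list was -0.05, and its mean log2 ratio overlapped, from 0.54 to 0.74 in room air and from 0.50 to 0.60 with smoke. The part of mast cells in the Kitl difference was not tested.

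Dach1 encodes a transcriptional cofactor of the dachshund family, which works with proteins of the Eya family. Its ratios on room air arrays 1 to 5 were 3.82, 4.12, 4.50, 3.38 and 3.52, and on smoke arrays 1 to 5 they were 2.46, 2.40, 2.97, 2.24 and 2.16. Array 3 was the highest in each group, and the groups were 0.41 apart. The difference was -1.42 ± 0.21 (SE, n = 5 against 5), a ratio 2.68-fold higher in room air. Green was well above background on 0 of 10 arrays for this probe, so the ratio rests on the red channel, in which the difference was -1.45 and the groups did not overlap. A dimmer Dach1 probe had ratios of 1.12, 0.86, 0.93, 0.77 and 0.96 in room air and 0.45, 0.57, 0.58, 0.36 and 0.47 with smoke. It also showed no overlap, but a smaller difference of -0.45 ± 0.07, and the deviations of both probes from their group means were only loosely related (r = 0.34, n = 10 arrays).

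Of 12 measured genes of Dach, Eya and Ski proteins and their partners, 0 were called in either direction by limma, although 2 were called with the slide as a replicate block. Their median was 0.02. Dach2, the nearest relative, was well above background on 0 arrays, as were Six2 and Six6. The values of the list ran from -0.39 to 0.14, so every gene in it lay above both Dach1 probes.

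Bex2 encodes a small protein of the brain-expressed X-linked family that takes part in transcription and cell survival. The ratios were 3.69, 4.05, 4.31, 3.66 and 3.84 on room air arrays 1 to 5, and 3.1, 2.86, 3.30, 2.26 and 2.60 on smoke arrays 1 to 5. The groups were 0.37 apart, and array 3 was again the highest in each. The difference was -1.08 ± 0.19 (SE, n = 5 against 5), a ratio 2.12-fold higher in room air. In the red channel it was -1.52, and in green -0.43, the largest green difference among the 13 probes. The log ratio of the scanner software gave -0.44, so the size of this difference depended on the scaling.

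Bex1, a close relative, fell by 0.83 ± 0.13 (adjusted p = 0.00277 by limma, 5 of 5 smoke arrays below every room air array), from a mean ratio of 1.29 to 0.46, and passed in all 10 fits with an array left out. On the main scaling it was the only gene called by limma among 9 measured Bex and Tceal genes of the 11 listed, whereas with the slide as a replicate block 3 were called lower. The median of the 9 was -0.24. Bex4 had -0.05 ± 0.16 (adjusted p = 0.942 by limma, 1 of 5 smoke arrays below and 1 above every room air array), and its value ranged from -0.64 to 0.09 over the scalings. It passed as lower on the red channel alone, at -0.63 with the processed signal and at -0.64 with quantile normalization. Tceal7 was well above background on 0 arrays.

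Camk2b encodes the beta subunit of calcium and calmodulin-dependent protein kinase II. The ratios were -0.21, -0.19, -0.33, -0.08 and -0.22 on room air arrays 1 to 5 and -0.50, -0.53, -0.74, -0.61 and -0.49 on smoke arrays 1 to 5. Room air array 3 and smoke array 3 were the lowest of their groups, the reverse of their place for Dach1 and Bex2. The groups were 0.17 apart. The difference was -0.37 ± 0.06 (SE, n = 5 against 5), a ratio 1.29-fold higher in room air, the smallest among the 8 genes on this scaling. Its red values were low, 6.89 ± 0.07 in room air and 6.45 ± 0.11 with smoke (SD). The log ratio of the scanner software gave -1.02 and its red processed signal -1.04, both larger than those of Kitl (-0.61 and -0.58). The 3 GCGTG matches of the sequence shown above belong to this gene.

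The other subunits of the kinase did not pass. Camk2a had 0.08 ± 0.17, Camk2d 0.09 ± 0.10 and Camk2g 0.07 ± 0.05 (adjusted p = 0.892, 0.731 and 0.604 by limma, with 0, 0 and 2 of 5 smoke arrays above every room air array). With median centring these values turned to -0.0047, -0.0097 and -0.04. Whether the subunits differ from Camk2b was not tested. Of 16 measured genes of this kinase family and calmodulin, 0 were called lower and 1 higher, or 1 and 2 with the replicate block. Camk4, a kinase known from T cells and neurons, rose by 0.31 ± 0.07 (adjusted p = 0.0214 by limma, 5 of 5 smoke arrays above every room air array), but passed with neither smoke array 1 nor smoke array 5 left out, nor with median centring or the red channel alone in either scaling.

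**Figure D2:**
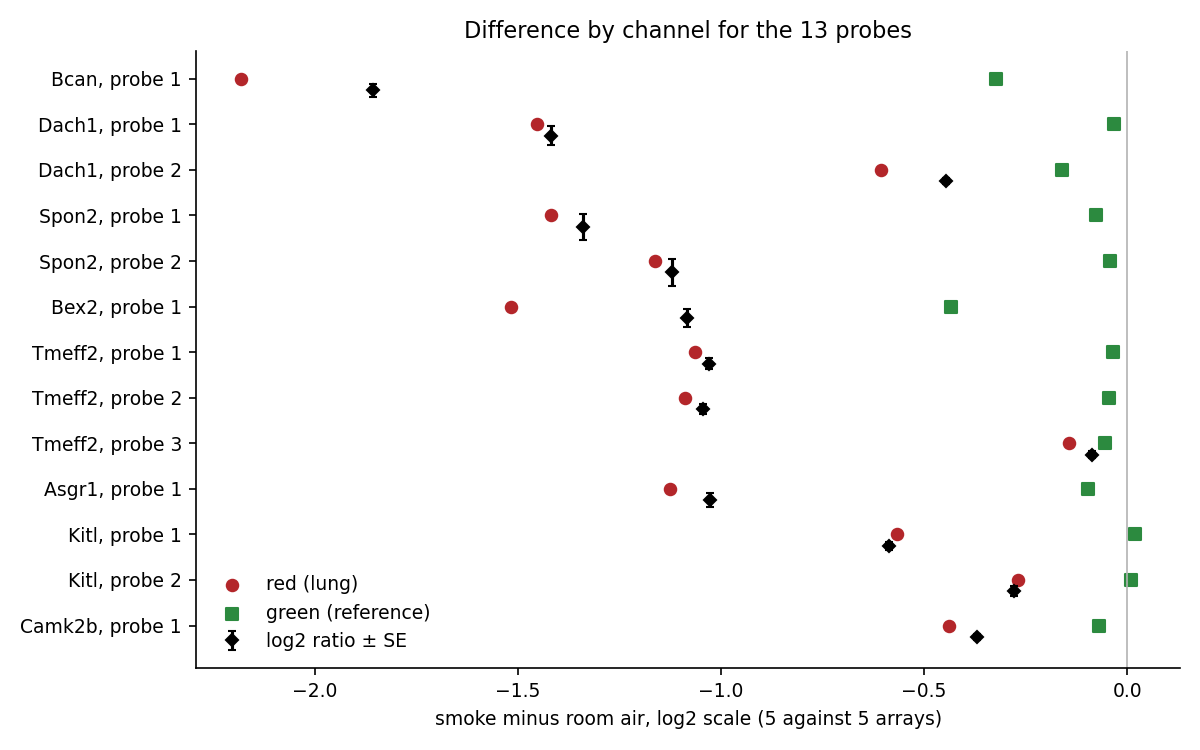
Smoke minus room air on the log2 scale for each of the 13 probes, in the red channel (lung, circles), the green channel (reference, squares) and the ratio (diamonds with SE, n = 5 against 5). Red lies left of 0 for every probe, and green lies farthest from 0 for Bex2 (-0.43) and Bcan (-0.32).

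In all 8 genes the larger part of the difference lay in the red channel. The green difference of the main probes ran from -0.43 for Bex2 to 0.02 for Kitl. In the red channel the differences were -2.18 for Bcan, -1.52 for Bex2, -1.45 for Dach1 and -1.42 for Spon2. They were -1.12 for Asgr1, -1.06 for Tmeff2, -0.57 for Kitl and -0.44 for Camk2b. Bex2 thus came before Dach1 and Spon2 on that channel, which it followed on the ratio.

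Over the 8 lists of related genes together, 104 genes were measured, and their median difference was -0.02. By limma 6 were called lower and 8 higher (13.5%, beside 7.06% of all probes). These shares are not alike, since each gene counts by its brightest probe and all probes include dim ones. Among probes well above background in red on all arrays of a group, 15 of 89 related genes and 3008 of 27004 probes were called. With the slide as a replicate block, 30 of the 104 were called, 16 of them lower, beside 5019 of 41173 probes, and with median centring 9. Nearest relatives thus went different ways, with Bex1 lower like Bex2, Asgr2 higher where Asgr1 was lower, and Tmeff1, Spon1, Ncan, Vcan and the other kinase subunits past no threshold. For genes with several probes, the brightest could differ from the rest: the other Adamts5 probe had -0.17, the other Pdgfra probe -0.15, the other Pik3cd probe 0.10, and the Ptpn6 probes ranged from 0.04 to 0.81. The other Sparc probe had -0.11, and the probes ranged from 0.05 to 0.31 for Camk4 and from 0.14 to 0.89 for Cd44.

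**Figure D3:**
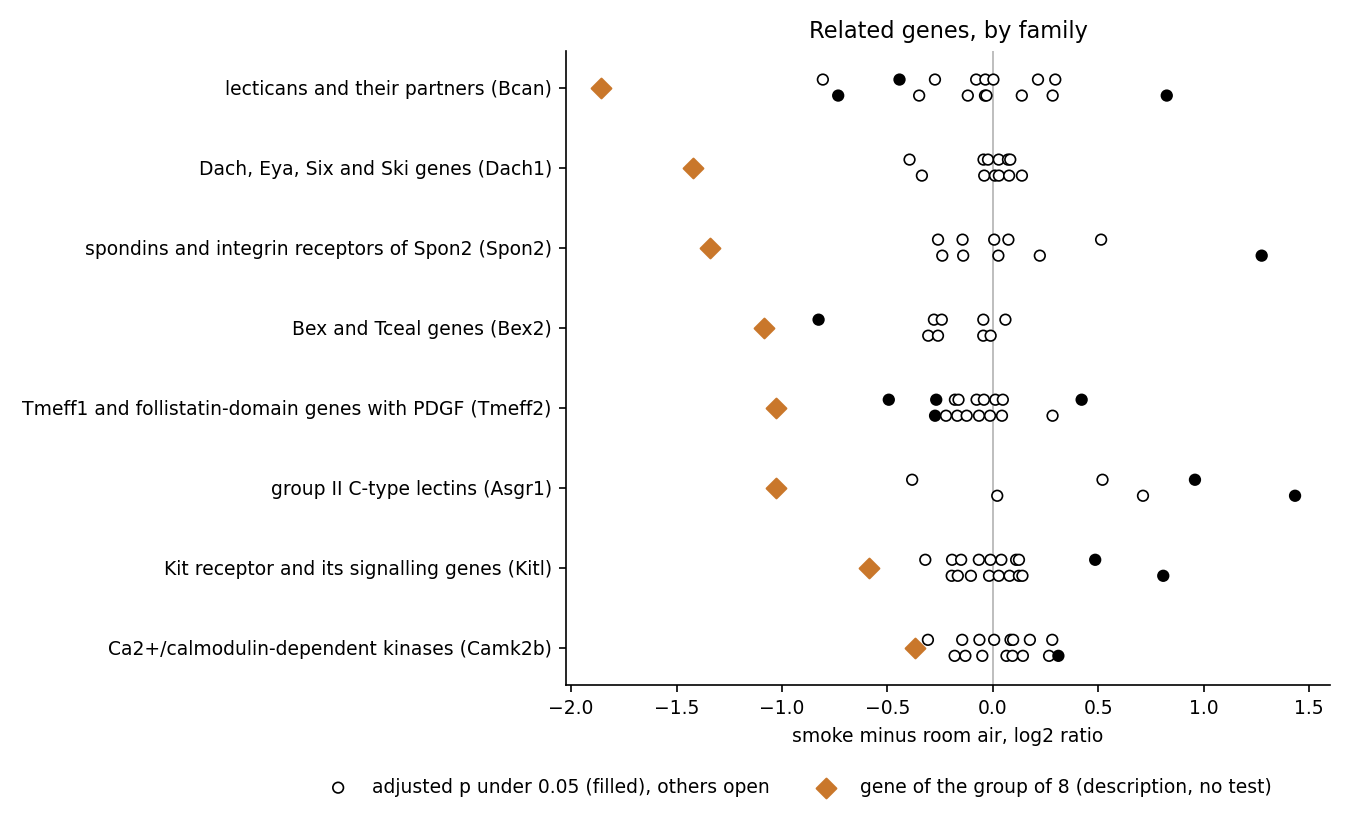
Difference of each related gene between smoke and room air (log2 ratio, 5 against 5 lungs), by family, with filled circles for an adjusted p under 0.05 by limma, open circles for the others and diamonds for the gene of the group of 8 that each family is named for. Each diamond lies left of the circles of its own family; 6 filled circles lie left of 0 and 8 lie right of it.

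The 10 arrays lie on 5 slides, and each slide holds the smoke array at place 1 and the room air array at place 2 of the same number, so group and place on the slide cannot be told apart. Within slides, all 40 differences of the 8 genes were below 0, which follows from groups that do not overlap. The median over the 8 genes was -0.64 on slide 1, -1.22 on slide 2, -1.13 on slide 3, -1.12 on slide 4 and -1.25 on slide 5. The median was thus nearest 0 on slide 1, where Spon2 and Asgr1 had -0.39 and -0.48. This did not hold for every gene, since Kitl had its largest difference there (-0.70), Dach1 its smallest on slide 4 (-1.14) and Camk2b its smallest on slide 5 (-0.27). Room air array 1 lay below its group mean for 7 of the 8 genes, all but Kitl, and was the lowest of its group for 3. Room air array 4 was also the lowest for 3, Bcan, Dach1 and Bex2, and lay below its group mean for 5. Room air array 1 stood apart in neutrophil markers, with a summed red signal of 113600 over 7 genes. Room air arrays 2 to 5 had 23410, 17830, 20020 and 26680. The sums on smoke arrays 1 to 5 were 54100, 41400, 31270, 35870 and 37540, and S100a9 was the brightest of these genes. The part of neutrophils in the values of room air array 1 was not tested, and values without that array are given above where it set the size.

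The deviations of the 8 genes from their group means, in which the smoke contrast does not enter, were related for some of the genes across the 10 arrays. Bcan, Dach1 and Bex2 deviated together, with Pearson's r of 0.88 for Bcan and Dach1, 0.86 for Bcan and Bex2 and 0.80 for Dach1 and Bex2. Spon2, Tmeff2 and Asgr1 did so as well, with 0.91 for Spon2 and Tmeff2, 0.78 for Spon2 and Asgr1 and 0.73 for Tmeff2 and Asgr1. Between these sets of genes r ran from -0.25 to 0.37. Camk2b went against Dach1 (-0.77) and Bcan (-0.68), and Kitl against Asgr1 (-0.71) and Spon2 (-0.61). The median over the 28 pairs was 0.13, and it depended on the scaling, with 0.33 for median centring, 0.52 for the red processed signal, 0.42 for quantile-normalized red and 0.39 with the slide means taken out. The ratios of Dach1 are taken over a green signal that was not well above background on any array, which limits its values of r. Green also enters those of Bcan and Bex2. On room air array 4, where both ratios were lowest, red was 10.03 and 10.83, beside room air means of 9.925 and 10.81. Green was 7.16 there for both, the highest of the group. On smoke array 4, the red of Bex2 was the lowest of its group, at 8.90. The part of each channel in r was not tested. These values describe 10 arrays that share slides in pairs, and room air array 1 weighs on those of Spon2, Tmeff2 and Asgr1.

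**Figure D4:**
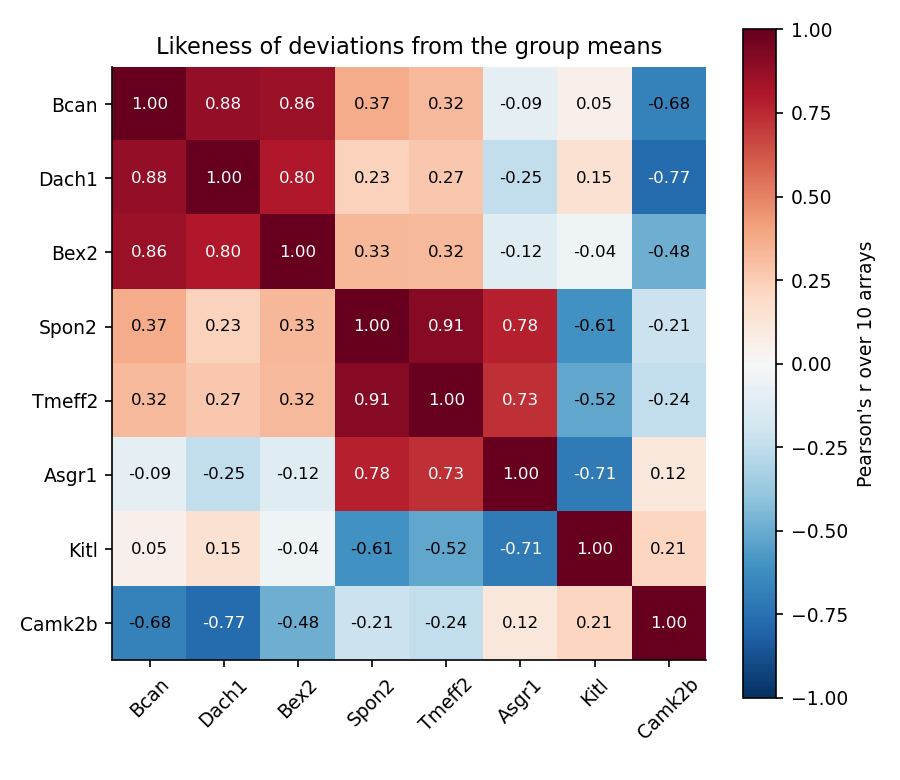
Pearson's r between the 8 genes for deviations of the log2 ratio from the group mean over 10 arrays, from ratios on the main scaling, as a colour scale from -1 to 1 with the value in each square. Bcan, Dach1 and Bex2 form a block of values from 0.80 to 0.88, and Spon2, Tmeff2 and Asgr1 a block from 0.73 to 0.91.

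Among 13921 named genes well above background in red on all arrays, the nearest to Bcan by this measure were Zfp418 (r = 0.99) and Ovol2 (0.98), and to Dach1 Tex15 (0.98) and Rnf144a (0.97). The nearest to Bex2 were Maats1 (0.98) and Celsr2 (0.97). Col4a5 (0.98) and Mtss1 (0.97) were nearest to Spon2, Praf2 (0.98) and Nit1 (0.98) to Tmeff2, and Sertad4 (0.97) and Prxl2c (0.96) to Asgr1. For Kitl they were Eif3a (0.97) and Atp13a3 (0.96), and for Camk2b Cux1 (0.93) and Mrpl20 (0.93). For each gene these are the highest values of r among 13921 candidates, over few arrays. Picking the highest of so many can by itself give values near 1. Whether these values exceed that was not tested, so no shared regulation is read from them. None of these 16 genes passed the limma threshold between smoke and room air, and the largest of their differences was that of Rnf144a, at -0.54 ± 0.15 (adjusted p = 0.0548 by limma).

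Markers of cell types of the lung were read beside the 8 genes. Over all probes, 2.7% were called lower by limma and 4.35% higher. Of 8 aerocyte markers, genes of the large capillary cells of the alveolus, 5 were called lower by limma and 0 higher, with a median of -0.31, and all 8 were well above background on 10 arrays. They were Ednrb (-0.78), Apln (-0.65), Pmp22 (-0.55), Emp2 (-0.39) and Fibin (-0.23), of which Fibin passed in 3 of the 10 fits with an array left out and the others in all 10. The dimmer probe nearest 0 had -0.42 for Ednrb, -0.05 for Apln and -0.03 for Pmp22. The summed red signal of the list was 138000, 173400, 162000, 163000 and 149300 on room air arrays 1 to 5 and 107700, 110100, 114400, 118200 and 99420 on smoke arrays 1 to 5, and Emp2 was the brightest. Every smoke sum thus lay below every room air sum, as the ratios of the 8 genes did.

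Of 8 markers of general capillary cells 1 was called lower, Hilpda, at -0.93. Their sums were 92870, 111000, 107200, 130100 and 106800 in room air and 76030, 84180, 74130, 85760 and 74880 with smoke, with Ptprb the brightest. Of 12 fibroblast and smooth muscle markers, 4 were called lower and 0 higher, with a median of -0.33. They were Dcn (-0.49, another probe 0.01), Pdgfrb (-0.46), Acta2 (-0.45, another probe 0.0084) and Tcf21 (-0.35), of which Tcf21 passed in only 1 of the 10 fits with an array left out. Their sums were 210200, 240600, 275200, 258500 and 303400 in room air and 160200, 144600, 184100, 179500 and 186100 with smoke, with Inmt the brightest. The sums of both lists thus separated the groups in the same direction as the 8 genes. By the mean log2 ratio of each list, fibroblast and smooth muscle markers also separated the groups, but general capillary markers overlapped, from 3.92 to 4.45 in room air and from 3.44 to 4.04 with smoke. Of 7 mesothelial markers, Upk3b was called lower (-0.57) and Krt19, the brightest, higher (0.29). None of the 7 was called higher with median centring or with the red channel alone in either scaling. The sums overlapped, from 22120 to 29320 in room air and from 21720 to 30180 with smoke. The median of these markers was -0.36, and their mean log2 ratio did not overlap, with 0.80 ± 0.07 in room air and 0.51 ± 0.08 with smoke (SD, n = 5 each). With the slide as a replicate block, 5019 of 41173 probes were called, 2227 of them lower. Beside that share, 5 mesothelial markers were called lower and 1 higher. Lower in the same fit were 7 fibroblast and smooth muscle, 3 general capillary and 5 aerocyte markers.

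Macrophage markers moved the other way. Of 10 genes, 9 were called higher and 0 lower by limma, with a median of 2.33, and Lyz2, the brightest, was the exception at 0.18 ± 0.17. The sums of the 10 were 321600, 404500, 324500, 327600 and 382900 in room air and 384500, 522900, 459500, 343000 and 474400 with smoke, which overlapped between the groups. By the mean log2 ratio, which gives each gene the same weight, the list stood at 0.50 ± 0.10 in room air and 2.58 ± 0.07 with smoke (SD, n = 5 each). Of the 8 related genes called higher, Itgb2, Ptpn6 and Pik3cd are known from leukocytes, and leukocyte genes were not tested as a list. Itgam and Itga4, integrin chains listed with Itgb2, were not called (0.51 and -0.14, adjusted p = 0.169 and 0.761 by limma). Itgam was called higher with the slide as a replicate block. Of 7 neutrophil markers 2 were higher, Camp and Mmp8, and of 7 platelet markers 1, Pf4.

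Bcan, Bex2, Tmeff2 and Camk2b are known from neurons and glia, and 14 markers of these cells were measured, of which 7 were well above background on 10 arrays and Nefm on 0. None was called in either direction by limma, against 1 lower and 1 higher with the replicate block, and their median was -0.02. Their sums ran from 4396 to 4710 in room air and from 4778 to 5555 with smoke, higher with smoke and thus opposite to the 8 genes, with Mbp the brightest, whereas their mean log2 ratio was 0.36 ± 0.02 and 0.35 ± 0.04 (SD, n = 5 each). Of 9 markers of neuroendocrine cells, Calca, the brightest, was called higher (1.44, its other probe 0.40) and Ddc lower (-0.63, its other probe 0.04). With the log ratio of the scanner software none of the 9 was called higher. The sums ran from 1799 to 1999 in room air and from 2443 to 3120 with smoke. The part of any of these cell types in the differences of the 8 genes was not tested.

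**Figure D5:**
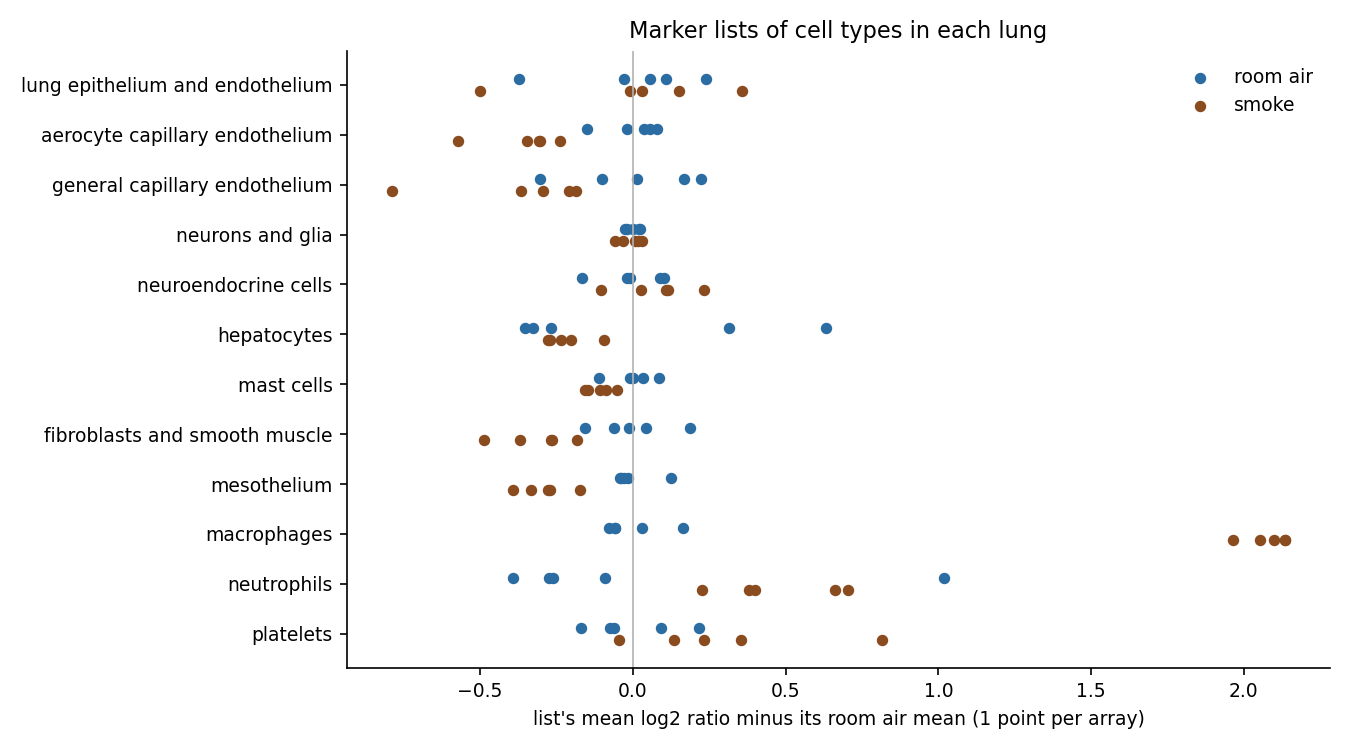
Mean log2 ratio of each marker list on each array minus the room air mean of that list, with 1 point per lung. Smoke lungs lie left of the room air lungs for aerocyte, fibroblast and mesothelial markers and far right of them for macrophage markers, and the hepatocyte and neutrophil lists each have room air lungs that stand apart.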

How the data were processed

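RNA of 10 whole lungs, 5 from each group, was measured on 10 Agilent arrays with 43379 spots other than controls. Spot brightness is an intensity and the scanner's ratio is a log10 value, both made per the file headers with Agilent Feature Extraction 9.5.3.1 and its 2-colour protocol, with its own background subtraction and dye normalization of processed signals. The flags for spots well above background, saturated spots and outlier spots are other values that the same software set per the file headers. The deposited table holds log2 values, for which the authors name limma without a function; every value equals, within 1e-04, the mean log2 of the red and green median signals less background, with no further normalization. Its column medians were 8.03, 7.86, 7.34, 8.03 and 7.84 for room air and 7.96, 8.06, 7.81, 7.67 and 7.88 for smoke, and it served only as an alternative. Why it holds this mean is unknown.

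From the scanner files, spots marked as outliers (83 to 144 per array) were set missing, background was corrected with normexp (offset 50), and each array was normalized by loess. Spots of a probe were averaged, and 41174 probes of 27670 genes resulted, named through the accession for 22951 probes, the symbol for 6659, a synonym for 3109 and the file's own name for 8455. Groups were compared with limma 3.58.1 in R 4.3.3, taking an adjusted p under 0.05 (Benjamini-Hochberg, all probes) as a call. Python 3.11.15 with pandas 2.3.3, numpy 2.4.6 and matplotlib 3.10.9 did the rest. The limma script was checked on simulated data. The share of spots well above background in red ran from 67.8% to 76.7% in room air and from 64.9% to 77.5% with smoke, and the median red signal over background from 1.68 to 2.82. The 5 arrays per group limit precision to the standard errors given.

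The members and lists were chosen with earlier results of these data known. Named were the 8 genes, their nearest relatives and receptors, up to 4 genes of each family that passed the test, the brightest marker of each cell type, the 2 genes most like each of the 8, and the neighbours in the order of falls. Markers of cell types that passed the test were named after their values were seen. Arrays of the same number share a slide, and their deviations from the group means correlated with r = 0.16, 0.46, 0.46, 0.55 and 0.41, whereas arrays of different numbers had a median r of -0.12 and at most 0.21. The fit with the slide as a replicate block was therefore an alternative. The others were the exact Wilcoxon test named in the methods, the scanner software's log ratio, median centring, the red channel alone in 2 scalings, filters of dim probes, a mean over each gene's probes, the deposited table, and each array left out in turn.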

Additional observations from a re-analysis of the deposited data

Results flagged for a closer look

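A lung that lay far from the other 4 of its group was sought among 74 groups of 5 values by Dixon's ratio, the gap to the nearest lung over the range, with a critical value of 0.71. Chance alone gives about 1 in 20 groups, and 7 of the 74 were past the value, with 0 among the probes of the 8 genes. For Bex4, array 4 was low in both groups, at 3.72 in room air (nearest lung 4.21, ratio 0.802) and 3.57 with smoke (nearest 4.19, ratio 0.786), and these arrays share a slide. Cd44 was high on room air array 1, at 0.11 (nearest -0.84, ratio 0.837). Hapln3 was low on room air array 4, at 0.55 (nearest 1.04, ratio 0.76), and Ncan high on smoke array 4, at -0.57 (nearest -0.86, ratio 0.797). Pdgfra was high on smoke array 5, at 0.84 (nearest 0.74, ratio 0.72), and Vcan low on room air array 3, at -2.84 (nearest -2.26, ratio 0.745).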

How the results depend on the processing

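Other than in the deposited table, all 139 alternative values of the 8 genes kept their direction. The replicate block and the filters of dim probes leave a difference as it is by construction. With groups that did not overlap and all probes of these genes lower, an array left out or a mean of probes could not turn it either. Those among the values thus say nothing, and only the other scalings could have changed a direction. Calls numbered 2906 probes in the main limma fit, 1434 with median centring, 1759 with the red processed signal, 5019 with the slide as a replicate block (2227 lower) and 2102 to 3660 with an array left out. Of the related genes 14 were called, 9 with median centring, 30 with the replicate block and 8 to 19 with an array left out. The exact Wilcoxon test, whose smallest p before adjustment is 0.00794, called 0 probes and 0 related genes after adjustment. Unadjusted, 5444 probes and 23 related genes were under 0.05, against 7479 and 37 by limma. The median of the 8 genes was -1.06, -1.47 with the red processed signal and -1.17 to -1.0 with an array left out. Ranges with an array left out were -1.96 to -1.77 for Bcan, -1.55 to -1.26 for Dach1, -1.64 to -1.20 for Spon2, -1.20 to -0.94 for Bex2, -1.16 to -0.97 for Tmeff2, -1.19 to -0.95 for Asgr1, -0.64 to -0.53 for Kitl and -0.40 to -0.33 for Camk2b. The scanner's log ratio, the red processed signal and quantile-normalized red gave -1.45, -2.65 and -2.23 for Bcan, -0.44, -1.59 and -1.56 for Bex2, and -1.02, -1.04 and -0.48 for Camk2b, which had -0.48 with median centring. The first 2 gave -1.34 and -1.42 for Asgr1. The mean of all probes gave -0.93 for Dach1, -0.72 for Tmeff2 and -0.43 for Kitl. In the deposited table, whose groups are exchanged and whose values average red and green, so that its differences are not of ratios, the values were 2.32 for Bcan, 0.87 for Spon2, 1.69 for Bex2, 0.70 for Tmeff2, 0.80 for Asgr1, 0.34 for Kitl and 0.68 for Camk2b, and -0.21 for Dach1, with values on 2 arrays only. The median likeness of the 8 genes, 0.13, was 0.52 with the red processed signal, 0.42 with quantile-normalized red, 0.33 with median centring, 0.12 with the scanner's log ratio, 0.39 with the replicate block and 0.08 to 0.17 with an array left out; these alternatives were chosen after the data were seen. For the other shifts the cause was not tested.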
